A study of Mus musculus with 10 samples.

Results

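Mouse epiblast-like cells on day 3 of their induction (d3 EpiLC, 399 cells) were set beside epiblast stem cells (EpiSC, 373 cells), both picked by the library suffix of each cell barcode out of 2782 cells in 8 libraries. Which suffix is which stage comes from a table in the supplement of the paper. Of 14 primitive streak genes compared 13 were at least 2-fold higher in EpiSC, against 7.95% of all genes: T, the Brachyury factor of nascent mesoderm, had 0.284 CPM (0.0774 to 0.727) in d3 EpiLC and 84.5 CPM (79.5 to 89.7) in EpiSC. Dppa5a, an RNA-binding protein of early pluripotent cells, ran the other way, with 824 CPM (809 to 839) in d3 EpiLC and 0.862 CPM (0.43 to 1.54) in EpiSC. Germline genes that DNA methylation keeps silent in somatic cells summed to 169 CPM in d3 EpiLC, of which Sycp3 gave 105 CPM, and 18.5 CPM in EpiSC. Of 17 immediate early genes 13 were at least 2-fold lower in EpiSC, against 6.37% of all genes. So were 13 of 20 genes of a list of actin, contractile and YAP or SRF target genes. Pou5f1, the core factor of all pluripotent states, was under 2-fold different, with 765 CPM (750.3 to 779) in d3 EpiLC and 1269.7 CPM (1250.2 to 1289) in EpiSC.

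Pluripotent cells pass through several states between implantation and gastrulation. Naive cells resemble the epiblast before implantation, formative cells have left that state and can still become primordial germ cells, and primed cells resemble the epiblast at the onset of gastrulation. EpiLC serve as a model of the formative state and EpiSC as one of the primed state, in which competence for the germline is largely lost. Activin A signals through the receptors of NODAL, and bFGF through the FGF receptors, and both factors sustain both kinds of culture.

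Both groups were wild type cells of E14Tg2a, which the paper describes as a male ESC line. They started from 2i ESC, a naive culture kept in N2B27 with LIF, PD0325901 at 0.4 µM, which inhibits MEK, and CHIR99021 at 3 µM, which inhibits GSK3β. The EpiLC medium was N2B27 with activin A at 20 ng/ml, bFGF at 12 ng/ml and knockout serum replacement (KSR) at 10 µl/ml, on plates coated with fibronectin at 15 µg/ml. The labels describe this culture up to day 2 and give day 3 as a sample name alone. EpiSC were made with the same doses of activin A and bFGF and the same coating, without KSR, through passaging for 8 days or longer. Dissociation differed too, with TripleExpress for EpiLC and every other stage and Accutase for EpiSC alone. Each condition had 1 library, so that stage, medium, length of culture, dissociation and library cannot be told apart, and every comparison is a description without a test.

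The study followed E14Tg2a cells from ESC through EpiLC to primordial germ cell-like cells by single-cell RNA sequencing, with EpiSC as the primed state. The comparison asks how the last EpiLC stage differs from cells that have settled in the primed state. By its name this stage is 1 day past the d2 EpiLC used for germ cell induction. Levels in 2i ESC, d1 EpiLC and d2 EpiLC are given beside it where they show on which side a difference lies.

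The d3 EpiLC library held 14082462 UMIs (unique molecular identifiers, each 1 captured RNA molecule) and the EpiSC library 12760723. The median cell had 31893 UMIs and 4988 detected genes in d3 EpiLC, and 31587 UMIs and 5012 genes in EpiSC, and the 2 libraries shared 0 barcodes. Levels are CPM, counts per 1000000 of the UMIs summed over all cells of a library, with exact Poisson 95% intervals in parentheses, and folds carry exact conditional 95% intervals. These intervals cover counting error only. A count of 0 allows up to 0.213 CPM in d3 EpiLC and 0.235 CPM in EpiSC, the level of 3 UMIs, and a fold against 0 UMIs is a lower bound taken from that level. Shares of cells with a UMI were taken after thinning every cell to 20070 UMIs, which kept 359 d3 EpiLC, 346 EpiSC and 273 d2 EpiLC cells and left out 40, 27 and 16 cells with fewer. Their intervals are exact Clopper-Pearson, and 0 cells with a UMI allows a share of up to 1.02% in d3 EpiLC and 1.06% in EpiSC. Before thinning the median d2 EpiLC cell had 35956 UMIs. Doublets called in each library were 21 d3 EpiLC (5.26%) and 10 EpiSC (2.68%).

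Of 13472 genes with at least 10 UMIs over both libraries, 1071 (7.95%) were at least 2-fold higher in EpiSC and 858 (6.37%) at least 2-fold lower, on log2 of CPM plus 1. The remaining 11543 genes differed by less, and the median log2 ratio of EpiSC over d3 EpiLC was 0.13. Past 8-fold there were 55 genes in each direction. The higher genes summed to 13994 CPM in d3 EpiLC and 40259.6 CPM in EpiSC, and the lower genes to 21887 CPM and 5963 CPM. In d3 EpiLC 66 of the higher genes had 0 UMIs, and in EpiSC 85 of the lower genes had 0 UMIs. Which direction held more genes depended on the scaling: a trimmed mean of library sums (TMM) gave 802 higher and 1028 lower genes and moved the median of all genes by -0.13, and centring on the median of genes with at least 100 UMIs gave 773 and 1121 and moved it by -0.15. Counts and medians of gene lists below are to be read against the 7.95% higher, the 6.37% lower and the median of all genes. Ratios of single genes were also taken under 9 alternatives in pseudocount, scaling and cells.

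The earlier stages show on which side these genes moved. The higher genes had a median of 2.40 CPM in 2i ESC, 3.00 CPM in d1 EpiLC, 3.23 CPM in d2 EpiLC, 2.41 CPM in d3 EpiLC and 9.72 CPM in EpiSC, a level reached in EpiSC and in no EpiLC stage. The lower genes had medians of 3.31, 4.23, 6.32 and 8.49 CPM along the same path and 1.57 CPM in EpiSC, so that d3 EpiLC held their highest level. Both sets were chosen on d3 EpiLC and EpiSC, and so their medians there describe the choice.

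**Figure D1:**
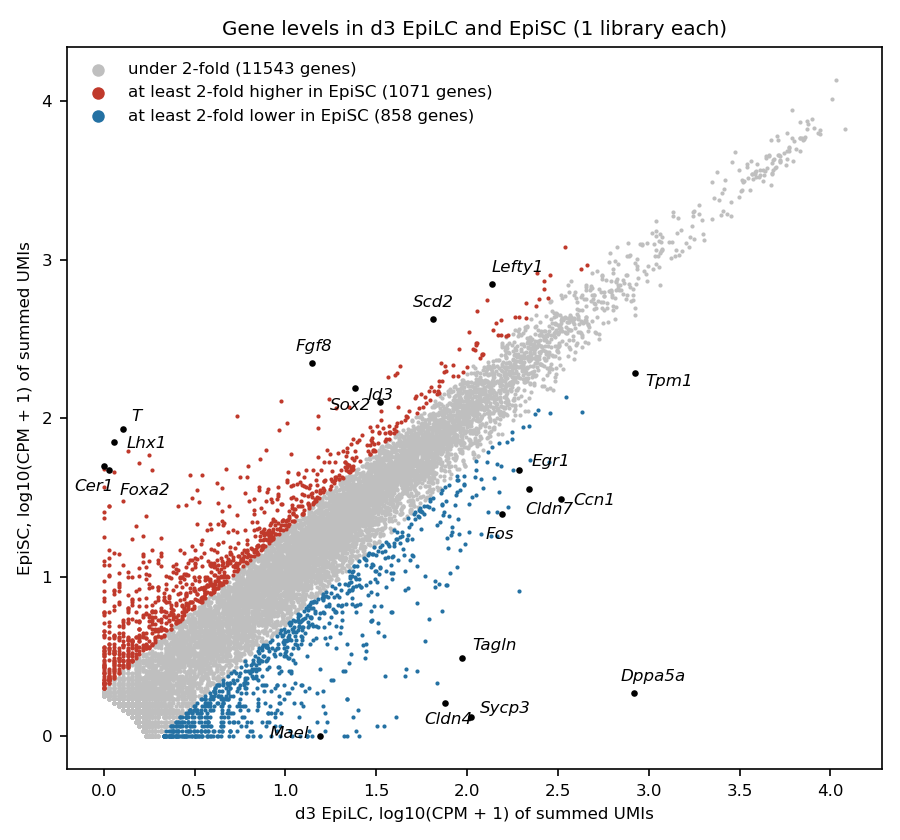
Each point is 1 of the 13472 genes compared, with its level in d3 EpiLC on the horizontal and in EpiSC on the vertical axis, both as log10 of CPM plus 1 from 1 library each. The 1071 genes at least 2-fold higher in EpiSC are red, the 858 lower genes are blue, and named genes are black.

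The labels were checked against markers first. All 10 core pluripotency genes were present in both libraries, with 3 higher in EpiSC and a median log2 ratio of 0.62. Sox2, the partner factor of OCT4, had 32.3 CPM (29.4 to 35.4) in d3 EpiLC and 126 CPM (119.9 to 132) in EpiSC, and L1td1, an RNA-binding protein of pluripotent cells, had 82.2 CPM (77.6 to 87.1) in d3 EpiLC and 216 CPM (208 to 224) in EpiSC. Sall4, a zinc finger factor of the same network, had 51.7 CPM in d3 EpiLC and 107 CPM in EpiSC, a ratio at the edge of 2-fold that fell under it in 7 of the 9 alternatives. Pou5f1, Utf1 and Tdgf1 had log2 ratios of 0.73, -0.55 and -0.26.

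Formative genes were shared rather than private to d3 EpiLC. Of 18 compared, 1 was higher in EpiSC and 3 lower, the median log2 ratio was -0.38, and their summed level was 1921 CPM in d2 EpiLC, 1303 CPM (1284 to 1322) in d3 EpiLC and 1276 CPM (1257 to 1296) in EpiSC. Fgf5, a growth factor of the epiblast after implantation, had 96.1 CPM (91.1 to 101) in d3 EpiLC and 147 CPM (140.4 to 154) in EpiSC, and Pou3f1, a POU factor of the same stage, had 136 CPM (130.4 to 143) in d3 EpiLC and 144 CPM (137 to 150.5) in EpiSC. Otx2, the homeobox factor that drives the exit from the naive state, had 135 CPM (129 to 142) in d3 EpiLC and 65 CPM (60.6 to 69.5) in EpiSC, and it was detected in 88.6% (84.8 to 91.7) of d3 EpiLC cells and 36.7% (31.6 to 42) of EpiSC cells. Sox3, a SOX factor of the epiblast and early neural tissue, had 17.2 CPM (15.1 to 19.5) in d3 EpiLC and 5.33 CPM (4.14 to 6.76) in EpiSC, and Grhl2, which keeps epithelial genes active, had 6.82 CPM in d3 EpiLC and 1.96 CPM in EpiSC. Etv4, an ETS factor downstream of FGF, was the member higher in EpiSC, with 16.7 CPM (14.6 to 19) in d3 EpiLC and 58.9 CPM (54.8 to 63.3) in EpiSC.

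Naive genes had 1 abundant member in d3 EpiLC and some of moderate level in both. Their summed level was 2245 CPM in d2 EpiLC, 998 CPM (981 to 1014) in d3 EpiLC and 122 CPM (116 to 128) in EpiSC, of which Dppa5a gave 824 CPM in d3 EpiLC, and 1 of 13 compared genes was higher in EpiSC and 5 lower. Zfp42, known as Rex1, a marker of naive cells, had 16.8 CPM (14.7 to 19) in d3 EpiLC and 1.25 CPM (0.717 to 2.04) in EpiSC. Esrrb, a nuclear receptor of naive cells, had 0.568 CPM in d3 EpiLC and 0.235 CPM in EpiSC after 60.5 CPM in 2i ESC. Nanog, which returns in the primed state, had 41.9 CPM in d3 EpiLC and 44.5 CPM in EpiSC, and Klf2, the most abundant naive gene of EpiSC, 55.5 CPM in d3 EpiLC and 46.9 CPM in EpiSC. At least 3 naive genes were detected in 56.4% (50.3 to 62.4) of d2 EpiLC, 68.2% (63.2 to 73) of d3 EpiLC and 14.2% (10.7 to 18.3) of EpiSC. Klf4, a naive factor that is also induced by serum and stress, had 16.3 CPM in d3 EpiLC and 4.15 CPM in EpiSC. Markers thus went with both labels: d3 EpiLC had Fgf5, Pou3f1 and Otx2 with T and Mixl1 near 0, and EpiSC had Fgf5 and Pou3f1 with T, Mixl1 and Eomes. Fgf5 and Pou3f1 were under 2-fold different and do not tell the labels apart. The values of T, Mixl1 and Eomes are those of the streak list below, so this check is no separate evidence for that list.

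Markers of other cell types were counted beside these. The extraembryonic ectoderm and trophoblast list had 2 higher and 0 lower of 7 compared, and summed to 8.88 CPM in d3 EpiLC and 49.5 CPM in EpiSC, with Krt7 giving most of the EpiSC sum and Hand1 at 0 UMIs in both. The neural list had 3 higher and 0 lower of 8 compared and summed to 76.8 CPM in d3 EpiLC and 68.6 CPM in EpiSC, with Nes, an intermediate filament gene, as its most abundant member in both and Pax6 at 0 UMIs in EpiSC. The nascent and paraxial mesoderm list had 1 higher and 0 lower of 6 compared, summed to 31 CPM in d3 EpiLC and 38.4 CPM in EpiSC, of which Lef1 gave 25.8 CPM and 26.4 CPM, and had 0 UMIs of Msgn1 in both. The fibroblast list had 1 higher and 2 lower of 5 compared and 35.9 CPM in d3 EpiLC and 32.8 CPM in EpiSC, led by Thy1 in d3 EpiLC and Fbln1 in EpiSC, with Postn and Lum at 0 UMIs in both. The surface ectoderm list had 1 higher and 0 lower of 2 compared and 52.1 CPM in d3 EpiLC and 62 CPM in EpiSC, nearly all Igfbp3, with Tfap2b and Krt5 at 0 UMIs in both. The 2-cell list had 0 members with enough UMIs to compare, and summed to 0.071 CPM in d3 EpiLC and 0.0784 CPM in EpiSC. None of these lists reached the levels of the streak list in EpiSC.

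Of the 15 largest rises T, Lhx1, Cer1, Gsc, Foxa2 and Sp5 belong to the list of the primitive streak, and T, Lhx1 and Cer1 are the first 3. The streak is the site where epiblast cells turn into mesoderm and endoderm. Of the 14 streak and mesendoderm genes compared, 13 were at least 2-fold higher in EpiSC and 0 lower, against 7.95% and 6.37% of all genes. Their median log2 ratio was 4.08, or 3.94 with genes at 0 UMIs set to 3 counts and from 2.87 to 6.11 over the alternatives in scaling, pseudocount and cells, and their summed level was 50.2 CPM in d2 EpiLC, 21.6 CPM (19.2 to 24.2) in d3 EpiLC and 698 CPM (684 to 713) in EpiSC. Fgf8, a growth factor that cells need to leave the streak, gave 222 CPM of the EpiSC sum. Tbx6, a factor of paraxial mesoderm, was the member that did not differ, with 0.568 CPM in d3 EpiLC and 0.47 CPM in EpiSC, and Cdx1 had 0 UMIs in both. With a pseudocount of 5 CPM the ratios of Evx1 and Nkx1-2 fell under 2-fold.

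T (ENSMUSG00000062327, chr17:8434423-8442496; GRCm38 coordinates here and below) was 297-fold (116 to 1094) higher in EpiSC and was detected in 0.557% (0.0675 to 2) of d3 EpiLC cells and 35% (29.9 to 40.3) of EpiSC cells, against 0 of 273 d2 EpiLC cells. Lhx1 (ENSMUSG00000018698, chr11:84518284-84525535), a LIM homeobox factor of the anterior streak, had 0.142 CPM (0.0172 to 0.513) in d3 EpiLC and 70.6 CPM (66.1 to 75.4) in EpiSC. Gsc, the homeobox factor that marks the organizer, had 0.355 CPM (0.115 to 0.829) in d3 EpiLC and 61.4 CPM (57.2 to 65.9) in EpiSC, and Foxa2, a forkhead factor of anterior streak and endoderm, had 0.071 CPM (0.0018 to 0.396) in d3 EpiLC and 46.1 CPM (42.4 to 50) in EpiSC. These levels lay at or near the floor in d3 EpiLC and all were above 40 CPM in EpiSC. Cer1, a secreted antagonist of NODAL, BMP and WNT, had 0 UMIs in d3 EpiLC and 49.4 CPM (45.7 to 53.5) in EpiSC, at least 232-fold higher. Mixl1, a homeobox factor of mesendoderm, had 0 UMIs in d3 EpiLC and 17 CPM (14.8 to 19.4) in EpiSC, and Eomes, a T-box factor needed for mesoderm and endoderm, had 2.34 CPM (1.61 to 3.29) in d3 EpiLC and 28.6 CPM (25.7 to 31.7) in EpiSC. Cdx2 and Evx1, homeobox factors of the posterior streak, had 12.3 CPM and 4.78 CPM in EpiSC, at 1 and 0 UMIs in d3 EpiLC.

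The rest of the 15 largest rises have mixed roles, and Sp5 of the streak list is given with them. Dkk1, a secreted WNT antagonist, had 0.142 CPM (0.0172 to 0.513) in d3 EpiLC and 45.1 CPM (41.5 to 49) in EpiSC, and Sp5, a zinc finger target of WNT, had 0.781 CPM (0.39 to 1.4) in d3 EpiLC and 58.1 CPM (54 to 62.4) in EpiSC. Rspo3, which amplifies WNT signalling, had 0.071 CPM (0.0018 to 0.396) in d3 EpiLC and 27.3 CPM (24.5 to 30.3) in EpiSC. Cyp26a1, an enzyme that degrades retinoic acid, had 0 UMIs in d3 EpiLC and 22.6 CPM (20.1 to 25.4) in EpiSC, at least 106-fold higher. Gata6, a factor of endoderm and early mesoderm, had 0.071 CPM (0.0018 to 0.396) in d3 EpiLC and 27.2 CPM (24.4 to 30.2) in EpiSC, and Foxq1, a forkhead factor, had 0.568 CPM (0.245 to 1.12) in d3 EpiLC and 51.7 CPM (47.9 to 55.8) in EpiSC. Spink1, a serine protease inhibitor, had 0 UMIs in d3 EpiLC and 46.8 CPM (43.1 to 50.7) in EpiSC, and Pga5, a pepsinogen, had 0 UMIs in d3 EpiLC and 35.9 CPM (32.7 to 39.3) in EpiSC. The ephrin ligand gene Efnb1 had 0 UMIs in d3 EpiLC and 24.8 CPM (22.1 to 27.6) in EpiSC, and Unc45b, a chaperone for myosin folding, had 0.852 CPM (0.44 to 1.49) in d3 EpiLC and 46.1 CPM (42.4 to 50) in EpiSC.

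Most of these genes were found in a minority of EpiSC. Lhx1 was detected in 20.8%, Cer1 in 16.2%, Dkk1 in 13.6%, Pga5 in 11.8% and Spink1 in 11% of EpiSC, against 0.366% for Lhx1 and 0 of 273 d2 EpiLC cells for Cer1 and Dkk1. Fgf8 was spread widely instead, in 17.5% (13.8 to 21.9) of d3 EpiLC cells and 88.4% (84.6 to 91.6) of EpiSC cells. Wnt3, the ligand that induces the streak, was in 5.01% (3 to 7.81) of d3 EpiLC cells and 45.4% (40 to 50.8) of EpiSC cells, and Unc45b in 1.11% of d3 EpiLC cells and 46.2% of EpiSC cells. At least 3 streak genes were detected in 59.5% (54.2 to 64.8) of EpiSC, in 0 of 359 d3 EpiLC cells and in 1.83% (0.597 to 4.22) of d2 EpiLC. The EpiSC ranged from 0 streak genes, in 2.02% of cells, to 11. The variance over the mean of the summed streak UMIs was 17.9, against 2.74 in d3 EpiLC. That ratio can rise with the level, which was 698 CPM in EpiSC and 21.6 CPM in d3 EpiLC, so the 2 ratios do not compare unevenness.

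**Figure D2:**
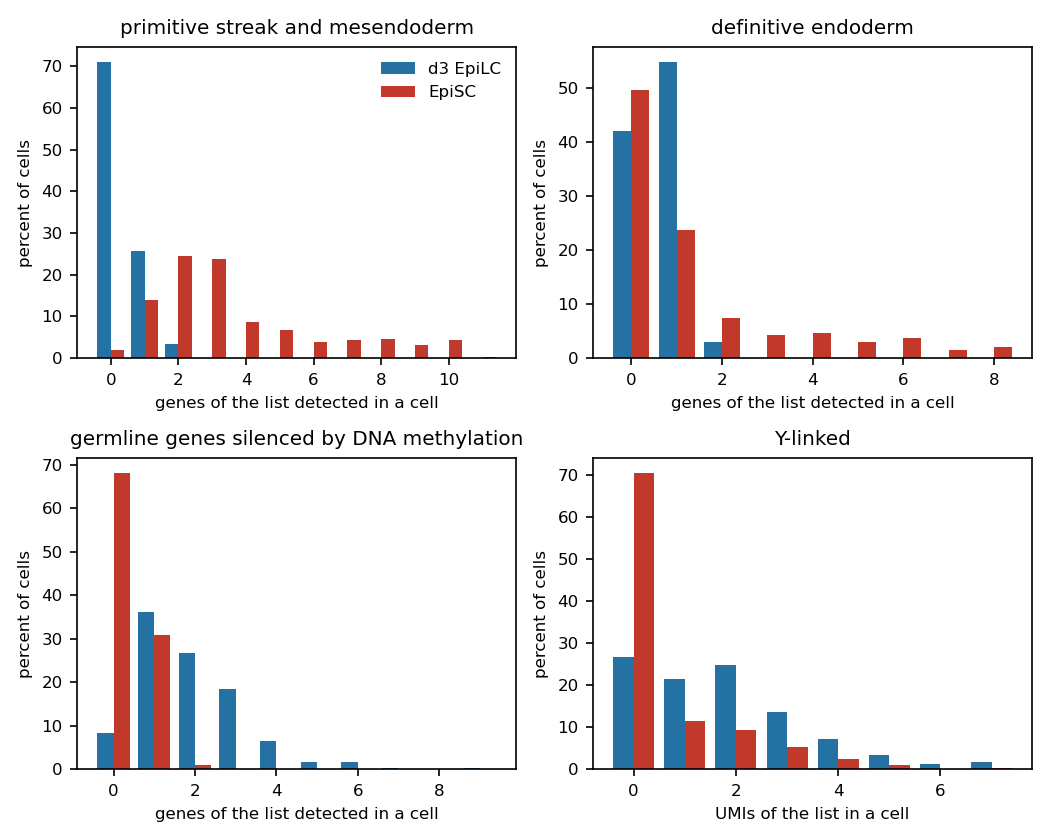
Bars give the percent of 359 d3 EpiLC cells (blue) and 346 EpiSC (red), each thinned to 20070 UMIs, by the number of genes of a list detected in a cell, and for the Y-linked list by the number of UMIs. Streak genes reach 11 in an EpiSC and 2 in a d3 EpiLC cell, while germline genes reach 9 in d3 EpiLC and 2 in EpiSC.

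Definitive endoderm genes were mostly higher too. Of 10 compared, 8 were higher in EpiSC and 1 lower, with a median log2 ratio of 3.29 (from 1.97 to 5.33 over the alternatives), and Cer1 and Foxa2 belong to the streak list too. Sox17, the SOX factor of endoderm, had 0.284 CPM (0.0774 to 0.727) in d3 EpiLC and 29.2 CPM (26.3 to 32.3) in EpiSC. Hhex, a homeobox factor of anterior endoderm, had 2.27 CPM (1.55 to 3.21) in d3 EpiLC and 34.6 CPM (31.5 to 38) in EpiSC, and Foxa1 had 0.213 CPM in d3 EpiLC and 9.72 CPM in EpiSC. Cxcr4, a chemokine receptor of endoderm, had 0 UMIs in d3 EpiLC and 5.09 CPM (3.93 to 6.49) in EpiSC. Trh, the gene of thyrotropin-releasing hormone, was the exception, with 71.9 CPM (67.6 to 76.5) in d3 EpiLC and 27.9 CPM (25.1 to 31) in EpiSC. The summed level of the list was 105 CPM in d2 EpiLC, 75.1 CPM (70.6 to 79.7) in d3 EpiLC and 233 CPM (225 to 242) in EpiSC, and Trh made up 71.9 CPM of the d3 EpiLC sum. At least 3 endoderm genes were detected in 19.08% (15.1 to 23.6) of EpiSC and in 0 of 359 d3 EpiLC cells. Of the primitive and visceral endoderm list 4 of 11 genes were higher and 1 lower, with 157 CPM in d3 EpiLC and 194 CPM in EpiSC. Of the higher genes Gata6, Gata4 and Sox17 are shared with definitive endoderm, and Col4a1 was the other. Afp and Ttr had 0 UMIs in d3 EpiLC, and Sox7 had 0 UMIs in EpiSC.

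Some streak genes were more frequent in EpiSC that held another. The gene pairs were chosen after their values were seen, and describe these pairs alone. Cer1 was detected in 69.4% (57.5 to 79.8) of 72 EpiSC with Lhx1 and in 2.19% (0.808 to 4.71) of 274 without it. Foxa2 was in 42.1% (33.2 to 51.5) of 121 EpiSC with T and in 16.4% (11.9 to 21.9) of 225 without. Mixl1 was in 28.1% (20.3 to 37) of the cells with T and in 7.56% (4.46 to 11.8) of the others. The endoderm factor Sox17 was in 34.1% (24.3 to 45) of 88 EpiSC with Foxa2 and in 5.43% (3 to 8.94) of 258 without. Sox2, a factor of undifferentiated cells, was nearly as frequent with T as without it, in 74.4% (65.6 to 81.9) and 81.3% (75.6 to 86.2) of cells. Fgf8 was likewise in 93.4% (87.4 to 97.1) of cells with T and 85.8% (80.5 to 90.1) of the others.

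Promoters of the rises are shown for T and Lhx1, the first 2 rises with a sequence. RefSeq promoter windows (GRCm38.p6) run from 250 bases before to 50 after the start of a gene, and the part before the start is printed 5′ to 3′ with CG in capitals. T is at chr17:8434173-8434422 on the plus strand and holds 14 CG. Lhx1 is at chr11:84525535-84525784 on the minus strand and holds 26 CG.
T: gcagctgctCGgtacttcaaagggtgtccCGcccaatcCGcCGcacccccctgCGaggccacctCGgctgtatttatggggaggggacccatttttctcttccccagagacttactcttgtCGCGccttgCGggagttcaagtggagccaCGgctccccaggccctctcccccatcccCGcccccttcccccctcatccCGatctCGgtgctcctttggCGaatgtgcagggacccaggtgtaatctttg
Lhx1: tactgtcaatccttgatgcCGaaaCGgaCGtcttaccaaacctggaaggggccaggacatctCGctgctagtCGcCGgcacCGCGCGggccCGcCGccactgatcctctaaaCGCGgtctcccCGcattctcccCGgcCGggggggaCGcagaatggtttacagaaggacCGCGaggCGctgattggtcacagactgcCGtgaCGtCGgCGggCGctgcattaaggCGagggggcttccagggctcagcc

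WNT signalling, which patterns the streak, was higher in 12 of 25 genes and lower in 0, against 7.95% and 6.37% of all genes, with a median log2 ratio of 0.90. That median depended on the setting and ran from 0.34 to 1.22, lowest with a pseudocount of 5 CPM. Among ligands Wnt3 had 3.2 CPM (2.33 to 4.28) in d3 EpiLC and 38.4 CPM (35.1 to 42) in EpiSC, Wnt8a had 0.568 CPM in d3 EpiLC and 10.4 CPM in EpiSC and Wnt5a 0.142 CPM in d3 EpiLC and 7.21 CPM in EpiSC. Among antagonists Sfrp1 had 9.23 CPM (7.71 to 11) in d3 EpiLC and 92.9 CPM (87.7 to 98.4) in EpiSC, while Sfrp2, a relative, had 59.2 CPM in d3 EpiLC and 33.7 CPM in EpiSC, under 2-fold the other way. The frizzled receptor gene Fzd5 had 4.4 CPM in d3 EpiLC and 18.3 CPM in EpiSC, and Tcf7l2, a factor that acts with β-catenin, had 4.97 CPM in d3 EpiLC and 33.1 CPM in EpiSC. Axin2, the feedback target most used to read the pathway, had 7.31 CPM in d3 EpiLC and 10.6 CPM in EpiSC, and Lef1 25.8 CPM in d3 EpiLC and 26.4 CPM in EpiSC, both under 2-fold.

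Of 15 BMP genes 9 were higher in EpiSC and 0 lower, beside 7.95% and 6.37% of all genes, with a median log2 ratio of 1.03. Id3, a direct target of BMP that blocks differentiation factors, had 23.1 CPM (20.7 to 25.8) in d3 EpiLC and 155 CPM (148 to 162) in EpiSC and was detected in 24.5% (20.1 to 29.3) of d3 EpiLC cells and 77.7% (73 to 82) of EpiSC cells. Id1 had 17 CPM in d3 EpiLC and 39.2 CPM in EpiSC. The ligand gene Bmp7 had 2.27 CPM (1.55 to 3.21) in d3 EpiLC and 20.7 CPM (18.3 to 23.3) in EpiSC and Bmp2 0.213 CPM in d3 EpiLC and 7.21 CPM in EpiSC. Chrd, the antagonist chordin of the organizer, had 0.71 CPM in d3 EpiLC and 9.56 CPM in EpiSC, and Fst, which binds activin and BMP, had 11.4 CPM in d3 EpiLC and 37.3 CPM in EpiSC. Smad1 and Smad6, a transducer and an inhibitor of the pathway, were at the edge of 2-fold, with log2 ratios of 1.02 and 1.03, and fell under it in 7 and 4 of the 9 alternatives. At least 3 BMP genes were detected in 79.5% (74.8 to 83.6) of EpiSC and 30.1% (25.4 to 35.1) of d3 EpiLC.

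NODAL signalling, which the activin A of both media drives, had 2 of 19 genes higher and 1 lower, near the 7.95% and 6.37% of all genes, and a median log2 ratio of 0.27. Lefty1, a feedback antagonist of NODAL, had 135 CPM (129 to 142) in d3 EpiLC and 698 CPM (683 to 712) in EpiSC after 479 CPM in d2 EpiLC, and Cer1 was the other higher gene. Nodal itself had 31.9 CPM in d3 EpiLC and 26.2 CPM in EpiSC and Lefty2 14.8 CPM in d3 EpiLC and 18.2 CPM in EpiSC, both under 2-fold. Gdf3, a NODAL relative of pluripotent cells, was lower, with 20.9 CPM (18.6 to 23.4) in d3 EpiLC and 0.705 CPM (0.323 to 1.34) in EpiSC. The variance over the mean of Lefty1 was 19 in EpiSC and 5.51 in d3 EpiLC, at means of 13.9 and 2.76 UMIs per thinned cell. This ratio can rise with the mean, so it does not show that EpiSC were more uneven.

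FGF and ERK genes were higher in 7 and lower in 2 of 20 compared, with a median log2 ratio of 0.55. Fgf8 had 13.1 CPM (11.2 to 15.1) in d3 EpiLC and 222 CPM (214 to 230.1) in EpiSC after 38 CPM in d2 EpiLC. Etv1 and Etv4, ETS targets of the pathway, had 36.1 CPM and 58.9 CPM in EpiSC against 12.1 CPM and 16.7 CPM in d3 EpiLC, and the feedback inhibitors Spry2, Spry4 and Spred1 had log2 ratios of 1.32, 1.35 and 1.23. Fgf4, the ligand of naive cells, was lower, with 12.4 CPM in d3 EpiLC and 3.84 CPM in EpiSC, and so was Egr1, an immediate early gene. Dusp6, a phosphatase induced by ERK, had 49 CPM in d3 EpiLC and 28.6 CPM in EpiSC.

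Retinoic acid genes split, with 3 of 9 higher and 3 lower. Cyp26a1 was among the higher genes. Crabp1 and Crabp2, which carry retinoic acid, had 22.1 CPM in d3 EpiLC and 2.27 CPM in EpiSC, and 24.6 CPM in d3 EpiLC and 5.8 CPM in EpiSC. Of 14 NOTCH genes 4 were higher and 0 lower. Jag1, a NOTCH ligand, had 1.85 CPM in d3 EpiLC and 10.6 CPM in EpiSC, and Nrarp, a feedback target, 7.17 CPM in d3 EpiLC and 18.7 CPM in EpiSC.

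Hox genes, which set position along the body axis, were the most sparsely distributed of the higher lists. Of 30 genes 11 had enough UMIs, 7 of them were higher in EpiSC and 0 lower, and their summed level was 1.34 CPM in d2 EpiLC, 0.781 CPM (0.39 to 1.4) in d3 EpiLC and 24.6 CPM (22 to 27.5) in EpiSC. Hoxd9 had 0 UMIs in d3 EpiLC and 6.43 CPM (5.11 to 7.98) in EpiSC, and Hoxc9 0 UMIs in d3 EpiLC and 3.37 CPM (2.44 to 4.54) in EpiSC. In EpiSC 93.9% of cells had 0 Hox genes detected, 11 of 346 cells had at least 3, and a single cell had 9. In d3 EpiLC the most in a cell was 1. With a pseudocount of 5 CPM the ratios of Hoxa7, Hoxa9, Hoxc8, Hoxc9, Hoxc10 and Hoxd8 fell under 2-fold, and Hoxc8 and Hoxa9 fell under it in 6 and 3 of the 9 alternatives.

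Factors and markers of primordial germ cells (PGC) were compared next. Of 8 PGC genes 5 were higher in EpiSC and 1 lower, with a median log2 ratio of 1.45 (from 0.85 to 1.76 over the alternatives) and a summed level of 175 CPM in d2 EpiLC, 74.1 CPM (69.6 to 78.7) in d3 EpiLC and 221 CPM (213 to 229.1) in EpiSC. Tfap2c, an AP-2 factor of germ cells, epiblast and trophoblast, had 0.426 CPM (0.156 to 0.927) in d3 EpiLC and 16.5 CPM (14.4 to 18.9) in EpiSC. Ifitm1, a membrane protein of germ cell precursors and the streak, had 8.52 CPM (7.06 to 10.2) in d3 EpiLC and 129 CPM (123 to 135) in EpiSC, after 584 CPM in 2i ESC. Prdm1, the repressor BLIMP1, had 1.78 CPM in d3 EpiLC and 6.27 CPM in EpiSC, and Nanos3, an RNA-binding protein of germ cells, 0.426 CPM in d3 EpiLC and 5.72 CPM in EpiSC. Prdm14, a defining germ cell factor, had 0 UMIs in both, and Dppa3, known as Stella, had 0.568 CPM in d3 EpiLC and 0.862 CPM in EpiSC. Dnd1, an RNA-binding protein needed for germ cell survival, was the lower gene, with 9.23 CPM (7.71 to 11) in d3 EpiLC and 0.862 CPM (0.43 to 1.54) in EpiSC. With a pseudocount of 5 CPM the ratios of Prdm1, Nanos3 and Kit fell under 2-fold, which leaves Tfap2c and Ifitm1 as the higher genes.

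The deepest fall of all genes was that of Dppa5a (ENSMUSG00000060461, chr9:78367052-78368177). It was 955-fold (534 to 1915) lower in EpiSC, and was detected in 99.2% (97.6 to 99.8) of d3 EpiLC cells and 1.73% (0.639 to 3.74) of EpiSC cells. Along the stages it had 4668 CPM in 2i ESC, then 2977 CPM on day 1 and 2121 CPM on day 2 before the 824 CPM of d3 EpiLC, so that it was already falling and still present. In d3 EpiLC its variance over the mean, a ratio that can rise with the mean, was 11.2 at a mean of 17.5 UMIs per thinned cell. Dppa4, a nuclear protein of pluripotent cells, had 30.8 CPM (28 to 33.9) in d3 EpiLC and 0.157 CPM (0.019 to 0.566) in EpiSC.

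Germline genes silenced by DNA methylation were lower in 12 of 18 compared and higher in 0, against 6.37% and 7.95% of all genes. The median log2 ratio was -1.38, or -1.07 with genes at 0 UMIs set to 3 counts. It depended strongly on the pseudocount, at -3.78 with 0.1 CPM and -0.40 with 5 CPM. The summed level was 178 CPM in d2 EpiLC, 169 CPM (162 to 176) in d3 EpiLC and 18.5 CPM (16.2 to 21) in EpiSC. Sycp3 alone gave 57.2 CPM of the d2 EpiLC sum and 105 CPM of the d3 EpiLC sum, so the near-equal sums do not hold for the other members. Of the EpiSC sum Tdrkh, a piRNA pathway gene that was under 2-fold different, gave 15.5 CPM. Sycp3 (ENSMUSG00000020059, chr10:88459569-88473236), a protein of the meiotic chromosome axis, had 105 CPM (99.5 to 110.2) in d3 EpiLC and 0.313 CPM (0.0854 to 0.803) in EpiSC. Its level climbed from 27.4 CPM in d1 EpiLC to 57.2 CPM in d2 EpiLC before it. Mael, which silences transposons in germ cells, had 14.5 CPM (12.6 to 16.6) in d3 EpiLC and 0 UMIs in EpiSC, and Ddx4, the germ cell helicase VASA, 6.25 CPM (5.01 to 7.7) in d3 EpiLC and 0 UMIs in EpiSC. Dazl, an RNA-binding protein of germ cells, had 2.2 CPM (1.5 to 3.12) in d3 EpiLC and 0 UMIs in EpiSC, and Mov10l1, a piRNA helicase, 2.49 CPM (1.73 to 3.46) in d3 EpiLC and 0 UMIs in EpiSC. Smc1b and Stag3, subunits of meiotic cohesin, had 6.89 CPM in d3 EpiLC and 0.235 CPM in EpiSC, and 6.6 CPM in d3 EpiLC and 0.94 CPM in EpiSC. Tex19.1, which restrains transposons, had 6.04 CPM in d3 EpiLC and 0.549 CPM in EpiSC.

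Detection per cell showed the same order. Sycp3 was detected in 76.9% (72.2 to 81.1) of d3 EpiLC cells and 0.867% (0.179 to 2.51) of EpiSC cells, and Mael in 22.3% (18.1 to 26.9) of d3 EpiLC cells and 0 of 346 EpiSC cells. At least 3 germline genes were detected in 50.9% (44.8 to 57) of d2 EpiLC, 28.7% (24.1 to 33.7) of d3 EpiLC and 0 of 346 EpiSC. Of the 15 largest falls Sycp3 alone is on the list. Rbmxl2, an RNA-binding protein, had 20.8 CPM (18.5 to 23.3) in d3 EpiLC and 0 UMIs in EpiSC, and Fmr1nb, an X-linked gene, 23.4 CPM (21 to 26.1) in d3 EpiLC and 0.0784 CPM (0.00198 to 0.437) in EpiSC. Usp26, an X-linked deubiquitinase gene, had 24.3 CPM (21.8 to 27) in d3 EpiLC and 0 UMIs in EpiSC. With a pseudocount of 5 CPM the ratios of Dazl, Mov10l1, Sycp1, Slc25a31, Tuba3a, Fkbp6, Stag3 and Tex19.1 fell under 2-fold.

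Enzymes of DNA methylation mostly differed by less than 2-fold. Of 12 compared, 0 were higher and 3 lower, the median log2 ratio was 0.22, and the list summed to 698 CPM in d3 EpiLC and 770.4 CPM in EpiSC. Dnmt3b and Dnmt3a, which add new methylation, had 305 CPM in d3 EpiLC and 389.7 CPM in EpiSC, and 50.5 CPM in d3 EpiLC and 37.3 CPM in EpiSC, and Dnmt1, which copies it, 36.1 CPM in d3 EpiLC and 53.3 CPM in EpiSC, all under 2-fold. Dnmt3l, the cofactor of new methylation, was lower, with 4.4 CPM (3.38 to 5.64) in d3 EpiLC and 0.0784 CPM (0.00198 to 0.437) in EpiSC, after 31.2 CPM in d2 EpiLC. Uhrf1, which guides DNMT1, had 72 CPM in d3 EpiLC and 133 CPM in EpiSC, and Tet1, which oxidises methylated bases, 27.3 CPM in d3 EpiLC and 22.5 CPM in EpiSC. The other lower genes, Gadd45a and Gadd45b, respond to stress, and had 45.7 CPM in d3 EpiLC and 16.5 CPM in EpiSC, and 60.7 CPM in d3 EpiLC and 4.47 CPM in EpiSC.

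Promoters of the germline list were searched for CACGTG, an E-box that reads the same on both strands, in a choice made after the values were seen. It was present in 12 of 17 germline windows (70.6%, 44 to 89.7), in 7.15% of all 32851 windows of the RefSeq table and in 11.9% of the 10359 windows of genes compared. The immediate early, streak and actin lists had it in 3 of 13, 1 of 12 and 1 of 16 windows. Of the 18 genes compared, 17 had a window. The motif was also in the windows of Hormad1, Brdt, Stk31 and Tdrd1, which were under 2-fold different, but not in that of Tdrkh. Among the lower genes it was absent from Smc1b, Dazl, Tuba3a and Tex19.1. Its presence thus did not separate the lower members from the others. The planned comparison of promoters between all higher and all lower genes was void, because 75.5% and 74.4% of them had a window, under 80%. The genes compared (76.9%) and the immediate early list (76.5%) are under it too, so that their shares are given and nothing is read from them. Sycp3 (chr10:88459337-88459586, plus strand) holds the motif at 2 places in the 250 bases before its start, shown in capitals, and the 60 bases around it are given for Mael (chr1:166238935-166238994, minus), Ddx4 (chr13:112652311-112652370, minus) and Stag3 (chr5:138280312-138280371, plus). A match describes these letters and no bound factor.
Sycp3: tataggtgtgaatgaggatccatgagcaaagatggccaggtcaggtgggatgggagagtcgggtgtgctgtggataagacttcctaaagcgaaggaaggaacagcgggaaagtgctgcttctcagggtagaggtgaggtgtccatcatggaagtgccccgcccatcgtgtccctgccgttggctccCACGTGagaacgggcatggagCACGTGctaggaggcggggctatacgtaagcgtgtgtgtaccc
Mael: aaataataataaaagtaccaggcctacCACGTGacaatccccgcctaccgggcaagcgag
Ddx4: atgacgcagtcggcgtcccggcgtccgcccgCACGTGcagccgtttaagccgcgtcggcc
Stag3: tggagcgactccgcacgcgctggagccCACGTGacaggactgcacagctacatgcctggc

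Immediate early genes, which growth factors, stress and handling switch on within minutes, were lower in 13 of 17 compared and higher in 0, against 6.37% and 7.95% of all genes. The median log2 ratio was -2.32, and the summed level was 442 CPM in d2 EpiLC, 1819.8 CPM (1798 to 1842) in d3 EpiLC and 521 CPM (508 to 533) in EpiSC, so that d3 EpiLC stood apart from the stages on both sides. Fos and Jun, which together form AP-1, had 155 CPM (149 to 162) in d3 EpiLC and 24 CPM (21.4 to 26.8) in EpiSC, and 145 CPM (138 to 151) in d3 EpiLC and 24.7 CPM (22 to 27.6) in EpiSC. Egr1 had 192 CPM (185 to 199.7) in d3 EpiLC and 46.5 CPM (42.8 to 50.4) in EpiSC, and Klf6, a zinc finger factor, 282 CPM (273 to 291) in d3 EpiLC and 52.4 CPM (48.5 to 56.6) in EpiSC. Atf3, a stress factor, had 75.3 CPM (70.8 to 79.9) in d3 EpiLC and 7.99 CPM (6.52 to 9.7) in EpiSC, after 10.3 CPM in d2 EpiLC. Nr4a1, a nuclear receptor, had 76.9 CPM (72.4 to 81.6) in d3 EpiLC and 7.91 CPM (6.45 to 9.62) in EpiSC, and Zfp36, which destabilises AU-rich mRNA, 65.3 CPM in d3 EpiLC and 8.46 CPM in EpiSC. Myc, which is often counted with them, had 9.02 CPM in d3 EpiLC and 13.8 CPM in EpiSC.

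Detection per cell differed in the same direction, with no measure of RNA from outside the cells to set it against. Egr1 was detected in 90% (86.4 to 92.9) of d3 EpiLC cells and 51.7% (46.3 to 57.1) of EpiSC cells, Klf6 in 93.9% (90.9 to 96.1) of d3 EpiLC cells and 55.2% (49.8 to 60.5) of EpiSC cells and Fos in 77.7% (73.1 to 81.9) of d3 EpiLC cells and 27.2% (22.5 to 32.2) of EpiSC cells, while d2 EpiLC had 34.4%, 50.2% and 10.3%. The median number of immediate early genes per cell was 11 in d3 EpiLC and 5 in both EpiSC and d2 EpiLC. In d3 EpiLC Egr1 was in 93.5% (90 to 96.1) of 279 cells with Fos and 77.5% (66.8 to 86.1) of 80 without it. EpiSC and d3 EpiLC were dissociated with different enzymes, but d2 EpiLC and d3 EpiLC with the same one. The part of dissociation was not tested.

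Other stress lists had few genes past 2-fold. Of 12 heat shock genes 1 was higher in EpiSC and 0 lower, with a median log2 ratio of 0.31, and Hspa1a, the inducible HSP70, had 1.99 CPM in d3 EpiLC and 1.1 CPM in EpiSC. The higher one, Hspd1, a mitochondrial chaperonin, had a log2 ratio of 1.04 that fell under 2-fold in 5 of the 9 alternatives. Of 20 genes of the amino acid response 0 were higher and 3 lower, with a median of -0.37 and a summed level of 2394 CPM in d3 EpiLC and 1813 CPM in EpiSC. Asns, which makes asparagine, had 177 CPM in d3 EpiLC and 73.7 CPM in EpiSC, Ddit3, the factor CHOP, 30.6 CPM in d3 EpiLC and 9.95 CPM in EpiSC, and Nupr1, a stress-induced chromatin protein and 1 of the 15 largest falls, 67.2 CPM (63 to 71.6) in d3 EpiLC and 1.18 CPM (0.658 to 1.94) in EpiSC. Of 15 p53 targets 2 were higher and 1 lower, with a median of 0.48: Zmat3 and Plk2 had log2 ratios of 1.21 and 1.23, and Pmaip1, the death gene NOXA, was lower, with 39.4 CPM (36.2 to 42.8) in d3 EpiLC and 0.313 CPM (0.0854 to 0.803) in EpiSC. Cdkn1a, the target most used to read p53, had 105 CPM in d3 EpiLC and 143 CPM in EpiSC.

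The list of actin, contractile and YAP or SRF target genes was lower in 13 of 20 compared and higher in 0, beside 6.37% and 7.95% of all genes. Its lower members include Ccn1, Ccn2, Thbs1 and Ankrd1, which are not parts of actin filaments. The median log2 ratio was -2.11, and the summed level was 3526 CPM in d2 EpiLC, 6376 CPM (6334 to 6418) in d3 EpiLC and 3655 CPM (3622 to 3688) in EpiSC. Actb, the main cytoplasmic actin, had 859.9 CPM in d3 EpiLC and 874 CPM in EpiSC, and Actg1, its twin, 2822 CPM in d3 EpiLC and 1887 CPM in EpiSC, both under 2-fold. Tpm1, a tropomyosin, had 842 CPM (827 to 857) in d3 EpiLC and 191 CPM (184 to 199) in EpiSC. Tagln, the actin-binding protein SM22, had 93.2 CPM (88.2 to 98.3) in d3 EpiLC and 2.12 CPM (1.39 to 3.08) in EpiSC, and Myl9, a myosin light chain of contraction, 52.2 CPM (48.5 to 56.1) in d3 EpiLC and 1.57 CPM (0.957 to 2.42) in EpiSC. Acta1 and Acta2, muscle actins, had 15.5 CPM in d3 EpiLC and 0.0784 CPM in EpiSC, and 20.9 CPM in d3 EpiLC and 0.705 CPM in EpiSC. Ccn1 and Thbs1, secreted matrix proteins that YAP and SRF switch on, had 327 CPM (318 to 337) in d3 EpiLC and 30.3 CPM (27.4 to 33.5) in EpiSC, and 44.4 CPM (41 to 48) in d3 EpiLC and 1.41 CPM (0.836 to 2.23) in EpiSC. These genes were low in d2 EpiLC too, where Ccn1 had 20.9 CPM, Tagln 8.34 CPM and Thbs1 1.52 CPM. Tagln was detected in 58.8% (53.5 to 63.9) of d3 EpiLC cells and 2.02% (0.817 to 4.12) of EpiSC cells and Ccn1 in 96.7% (94.2 to 98.3) of d3 EpiLC cells and 35.8% (30.8 to 41.1) of EpiSC cells, against 14.3% and 27.1% of d2 EpiLC.

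Promoters of this list were searched for the CArG box, the motif of SRF, on both strands, and this choice too was made after the values were seen. It was present in 7 of 16 windows (43.8%, 19.8 to 70.1), in 1.63% of all windows and 1.68% of those of genes compared, in 2 of 13 windows of the immediate early list (15.4%, 1.92 to 45.4) and in 0 of 12 of the streak list and 0 of 17 of the germline list. The list was named in part for SRF targets, so a high share of the box can follow from how its genes were chosen. Among the lower genes the box was in Myl9, Acta1, Myl7, Cnn2 and Vcl and absent from Tpm1, Cnn1, Acta2, Ccn1 and Ankrd1. It was also in Myl6 and Actg1, which were under 2-fold different. Its presence thus did not separate the lower members from the others. The third motif searched, TATAAA, was in 2 of 16 windows of the actin list, 3 of 17 of the germline list, 3 of 13 of the immediate early list, 3 of 12 of the streak list, 13.6% of all windows and 8.29% of those of genes compared. The 60 bases around the CArG box, in capitals, are shown for Myl9 (chr2:156775278-156775337, plus), Acta1 (chr8:123894814-123894873, minus), Myl7 (chr11:5898809-5898868, minus) and Cnn2 (chr10:79988519-79988578, plus), in GRCm38.p6.
Myl9: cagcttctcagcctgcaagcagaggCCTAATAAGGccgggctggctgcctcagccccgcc
Acta1: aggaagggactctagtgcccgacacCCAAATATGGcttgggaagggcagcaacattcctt
Myl7: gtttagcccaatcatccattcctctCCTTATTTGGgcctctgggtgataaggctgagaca
Cnn2: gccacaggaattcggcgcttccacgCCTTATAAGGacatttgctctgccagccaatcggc

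The list of adhesion and of the epithelial to mesenchymal transition split. It had 4 of 20 genes higher in EpiSC and 4 lower, and its median log2 ratio of -0.17 changes sign with the scaling. Cldn4 (ENSMUSG00000047501, chr5:134945119-134946934), a claudin of tight junctions, had 74.3 CPM (69.8 to 78.9) in d3 EpiLC and 0.627 CPM (0.271 to 1.24) in EpiSC. Cldn3 and Cldn7 had 71.9 CPM (67.5 to 76.4) in d3 EpiLC and 5.17 CPM (4 to 6.58) in EpiSC, and 218 CPM (211 to 226) in d3 EpiLC and 35.2 CPM (32 to 38.6) in EpiSC, and Ocln, the gene of occludin, 8.88 CPM in d3 EpiLC and 1.1 CPM in EpiSC. Cldn7 had climbed from 5.36 CPM in d1 EpiLC to 96.5 CPM in d2 EpiLC. On the other side Cdh2, the N-cadherin of mesenchymal and neural cells, had 1.85 CPM (1.21 to 2.71) in d3 EpiLC and 27.6 CPM (24.8 to 30.6) in EpiSC, and Vim, the filament vimentin, 41.6 CPM (38.3 to 45.1) in d3 EpiLC and 214 CPM (206 to 222) in EpiSC. Zeb1 and Twist1, factors of the epithelial to mesenchymal transition, had 0.355 CPM in d3 EpiLC and 6.74 CPM in EpiSC, and 1.63 CPM in d3 EpiLC and 8.93 CPM in EpiSC. Cdh1 and Epcam, epithelial adhesion genes, had 107 CPM in d3 EpiLC and 59.2 CPM in EpiSC, and 305 CPM in d3 EpiLC and 171 CPM in EpiSC, under 2-fold, although Cdh1 passed 2-fold lower with TMM scaling and with centring, and Snai1 had 2.13 CPM in d3 EpiLC and 3.29 CPM in EpiSC.

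Cldn4 is the second fall with a printed promoter (chr5:134946935-134947184, minus strand, GRCm38.p6). It holds 7 CG, in capitals.
Cldn4: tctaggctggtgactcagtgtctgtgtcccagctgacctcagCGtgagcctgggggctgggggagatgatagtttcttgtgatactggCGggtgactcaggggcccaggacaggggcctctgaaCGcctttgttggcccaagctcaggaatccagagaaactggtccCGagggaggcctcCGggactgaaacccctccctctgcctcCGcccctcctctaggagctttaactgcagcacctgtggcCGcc

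Imprinted genes, which are read from the copy of 1 parent, were higher in 13 of 34 compared and lower in 1, with a median log2 ratio of 0.59. Sfmbt2, a Polycomb relative, had 1.99 CPM (1.32 to 2.87) in d3 EpiLC and 43.3 CPM (39.7 to 47) in EpiSC, and Peg10, a gene derived from a retrotransposon, 6.82 CPM (5.52 to 8.32) in d3 EpiLC and 62.7 CPM (58.4 to 67.2) in EpiSC. Peg12 had 0.071 CPM (0.0018 to 0.396) in d3 EpiLC and 13.9 CPM (11.9 to 16.1) in EpiSC, and Nnat, a gene of neural tissue, 0.071 CPM (0.0018 to 0.396) in d3 EpiLC and 11 CPM (9.23 to 12.9) in EpiSC. Mest had 40 CPM (36.8 to 43.5) in d3 EpiLC and 192 CPM (185 to 200.2) in EpiSC, Ndn, a MAGE protein, 4.4 CPM in d3 EpiLC and 23.7 CPM in EpiSC, and Peg3 17.8 CPM in d3 EpiLC and 52.4 CPM in EpiSC. All of these are known to be read from the paternal copy. Cdkn1c and Ascl2, read from the maternal copy, were higher too, with 21.5 CPM in d3 EpiLC and 118 CPM in EpiSC, and 0.781 CPM in d3 EpiLC and 8.07 CPM in EpiSC. Copg2 was the lower member, with 22.5 CPM in d3 EpiLC and 9.95 CPM in EpiSC, and Meg3, a long noncoding RNA that silencing often affects in cultured cells, had 836 CPM in d3 EpiLC and 496 CPM in EpiSC. The variance over the mean of Mest was 18.8 in EpiSC and 1.35 in d3 EpiLC, at means of 3.69 and 0.850 UMIs per thinned cell. That ratio can rise with the mean, so it does not show that EpiSC were more uneven.

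Lists of lipid synthesis had more genes higher in EpiSC than lower. Of 13 fatty acid genes 4 were higher and 0 lower, and of 25 cholesterol genes 6 were higher and 1 lower, with median log2 ratios of 0.44 and 0.57. Scd2, which makes monounsaturated fatty acids, had 64.3 CPM (60.1 to 68.6) in d3 EpiLC and 419 CPM (408 to 431) in EpiSC after 165 CPM in d2 EpiLC, and Fasn, the fatty acid synthase, 55 CPM in d3 EpiLC and 141 CPM in EpiSC. Nsdhl, an enzyme of late cholesterol synthesis, had 16.5 CPM in d3 EpiLC and 52 CPM in EpiSC.

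Glycolysis was lower in 4 of 21 genes and higher in 0, with a median log2 ratio of -0.30, and its summed level was 7804 CPM in d3 EpiLC and 7788 CPM in EpiSC. Slc2a1, the glucose transporter GLUT1, had 153 CPM in d3 EpiLC and 49.3 CPM in EpiSC, Aldoc, an aldolase, 25.2 CPM in d3 EpiLC and 7.68 CPM in EpiSC, Pgk1, a kinase of the pathway, 38.1 CPM in d3 EpiLC and 12.7 CPM in EpiSC and Pdk1, which holds back pyruvate oxidation, 41.6 CPM in d3 EpiLC and 16.8 CPM in EpiSC. Ldha and Gapdh, far more abundant, had 1093 CPM in d3 EpiLC and 1505 CPM in EpiSC, and 2275 CPM in d3 EpiLC and 2455 CPM in EpiSC. Of 14 hypoxia genes 0 were higher and 1 lower, Adm, the vessel hormone adrenomedullin, with 8.31 CPM in d3 EpiLC and 0.157 CPM in EpiSC.

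Transcripts of mitochondria made up 3.02% of UMIs in d3 EpiLC and 3.59% in EpiSC, and of 13 such genes 1 was higher and 0 lower, with a median log2 ratio of 0.36. That gene, mt-Nd3, had a log2 ratio of 1.01, which fell under 2-fold in 3 of the 9 alternatives. Ribosomal protein genes gave 39% of UMIs in d3 EpiLC and 34.5% in EpiSC, after 34.6% in d2 EpiLC. Of 83 such genes compared, a list added after the values were seen, 0 were higher and 2 lower, and the median log2 ratio was -0.22. The largest differences in CPM were of abundant genes, 6 of 10 of them mitochondrial or ribosomal. They were Rpl41, mt-Atp6, mt-Nd1, H2afz and mt-Cytb upward, with EpiSC minus d3 EpiLC at 2837, 2545, 1816, 1205 and 1198 CPM, all under 2-fold. Downward they were Ftl1-ps1, Rpl13a, Eef1a1, Rps18 and Malat1, at -5334, -2521, -2288, -2283 and -2024 CPM, also under 2-fold, although Ftl1-ps1 passed it with TMM scaling. Ftl1-ps1 is a pseudogene of ferritin light chain, and its reads and those of ribosomal protein genes can come from near-identical copies, so that their sources are uncertain.

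Genes of S phase and mitosis differed little, and regulators of the cycle more. Of 25 S phase genes and 26 mitosis genes 0 were at least 2-fold different, with median log2 ratios of 0.40 and 0.10, the second of which changes sign with the scaling. Of 17 cyclins and their regulators 6 were higher in EpiSC and 0 lower, with a median log2 ratio of 0.72. Cdk6, a kinase that drives G1, had 32.5 CPM (29.5 to 35.6) in d3 EpiLC and 96.7 CPM (91.4 to 102) in EpiSC. Inhibitors of such kinases were higher as well: Cdkn2a, which encodes p16 and p19, had 0.852 CPM (0.44 to 1.49) in d3 EpiLC and 13.9 CPM (12 to 16.2) in EpiSC, Cdkn2b, which encodes p15, 1.21 CPM in d3 EpiLC and 6.03 CPM in EpiSC, and Cdkn1c, which encodes p57, 21.5 CPM in d3 EpiLC and 118 CPM in EpiSC. Of 19 Polycomb and MLL genes 0 were at least 2-fold different, and Ezh2, the methyltransferase of Polycomb, had 106 CPM in d3 EpiLC and 143 CPM in EpiSC.

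The Y-linked list was lower in EpiSC. Its 3 members with enough UMIs were at least 2-fold lower, and their list had a summed level of 90.3 CPM in d2 EpiLC, 86.7 CPM (81.9 to 91.7) in d3 EpiLC and 30 CPM (27.1 to 33.2) in EpiSC. Eif2s3y, a translation factor gene, had 47.8 CPM (44.2 to 51.5) in d3 EpiLC and 11.9 CPM (10.1 to 14) in EpiSC, Ddx3y, a helicase gene, 27.9 CPM (25.2 to 30.8) in d3 EpiLC and 13.2 CPM (11.3 to 15.4) in EpiSC and Uty, a demethylase gene, 10.7 CPM (9.08 to 12.6) in d3 EpiLC and 4.86 CPM (3.73 to 6.23) in EpiSC. The ratios of Ddx3y and Uty lie at the edge of 2-fold, and each falls under it in 4 of the 9 alternatives. Cells without a UMI of the list were 26.7% (22.2 to 31.6) of d3 EpiLC and 70.5% (65.4 to 75.3) of EpiSC, after 22% (17.2 to 27.4) of d2 EpiLC. Before thinning they were 16.5% (13 to 20.6) and 62.7% (57.6 to 67.7). The variance over the mean of Y UMIs per cell was 1.45 in d3 EpiLC against 2.14 in EpiSC, and EpiSC held cells with and without UMIs of the list. Most UMIs assigned to chromosome Y lay outside the list and did not fall: Gm47283, a gene placed near the region that X and Y share, had 317 CPM (307 to 326) in d3 EpiLC and 341 CPM (331 to 351) in EpiSC. Chromosome Y as a whole had 0.0404% of UMIs in d3 EpiLC and 0.0372% in EpiSC. UMIs of this list per cell were examined after the fall was seen, and whether cells had lost the chromosome was not tested.

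On X, genes of the inactivation centre were lower in 2 of 5 compared. Xist, the RNA that coats the inactive X, had 7.74 CPM (6.36 to 9.34) in d3 EpiLC and 0.157 CPM (0.019 to 0.566) in EpiSC after 38.9 CPM in d2 EpiLC, and Tsix, its antisense, 15.9 CPM (13.9 to 18.1) in d3 EpiLC and 0.235 CPM (0.0485 to 0.687) in EpiSC. Across chromosomes the median log2 ratio of genes with at least 100 UMIs ran from 0.06 on chromosome 13 to 0.23 on chromosome 11, with 0.13 on X and 0.15 over all. Chromosome Y stood outside, at -1.01 over 4 genes, of which the 3 of the Y-linked list were lower, and the mitochondrial genome was at 0.36.

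Differences in detection gave genes already named and others. Among the 10 largest gains in the share of cells were Fgf8, Id3, Tcea3, Cd59a, Pkdcc, Cntfr, Chst1, Peg10 and Ifitm1. Tcea3, a transcription elongation factor, was in 23.1% of d3 EpiLC cells and 75.4% of EpiSC cells, Cd59a, which guards cells from complement, in 22.8% of d3 EpiLC cells and 74.9% of EpiSC cells, Pkdcc, a secreted kinase, in 13.1% of d3 EpiLC cells and 65% of EpiSC cells, Cntfr, a cytokine receptor, in 8.91% of d3 EpiLC cells and 56.4% of EpiSC cells and Chst1, a sulfotransferase, in 6.41% of d3 EpiLC cells and 52.9% of EpiSC cells. The 10 largest losses were Dppa5a, 1190005I06Rik, Sycp3, Car4, Cldn4, Pim1, Cldn3, Cldn7, Ccn1 and Klf3. Car4, a carbonic anhydrase, was in 81.1% of d3 EpiLC cells and 13% of EpiSC cells, Pim1, a kinase of survival signals, in 88.9% of d3 EpiLC cells and 22.8% of EpiSC cells, Klf3, a repressor, in 79.7% of d3 EpiLC cells and 19.08% of EpiSC cells and 1190005I06Rik, a gene without a settled role, in 90.8% of d3 EpiLC cells and 13% of EpiSC cells. The falls 2610528J11Rik, also without a settled role, and Cxcl16, a chemokine, had 34 CPM (31 to 37.2) in d3 EpiLC and 0.157 CPM (0.019 to 0.566) in EpiSC, and 20.1 CPM (17.8 to 22.6) in d3 EpiLC and 0 UMIs in EpiSC.

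Cells differed from each other more in EpiSC for a small number of genes. Over 3620 genes with a mean of at least 0.5 UMI in both, the median variance over the mean was 1.12 in d3 EpiLC and 1.14 in EpiSC. By this ratio 36 genes were at least 2-fold more variable in EpiSC against 6 in d3 EpiLC. The ratio can rise with the level of a gene, and levels were not matched. Trh, lower in EpiSC by its level, was detected in 54.3% of d3 EpiLC cells and 8.09% of EpiSC cells, with a variance over the mean of 51 in EpiSC against 4. Krt18, a keratin of simple epithelia, was in 92.2% of d3 EpiLC cells and 41.6% of EpiSC cells, with 22.4 against 2.16, and its partner Krt8 had 65.8 CPM in d3 EpiLC and 128 CPM in EpiSC while detected in 63% of d3 EpiLC cells and 38.4% of EpiSC cells. Fewer EpiSC thus held these keratins, at higher counts. Tmsb4x, which binds free actin, had 35.7 against 7.46, Lgals1, a galectin, 22.9 against 2.7 and S100a6, a calcium-binding protein, 17.5 against 3.26. The other genes of the 10 most variable in EpiSC, among genes with a mean of at least 0.5 UMI in that library, were Malat1, Spink1, Lefty1, Mest and Mt1. In d3 EpiLC the 10 by the same rule were Malat1, Ftl1-ps1, Mt1, Gm26917, Dppa5a, Mt2, Rhox5, mt-Atp6, Actg1 and mt-Co1. Rhox5, an X-linked homeobox gene, had 34.5 CPM (31.5 to 37.7) in d3 EpiLC and 1.41 CPM (0.836 to 2.23) in EpiSC and was detected in 17.5% of d3 EpiLC cells and 2.89% of EpiSC cells.

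**Figure D3:**
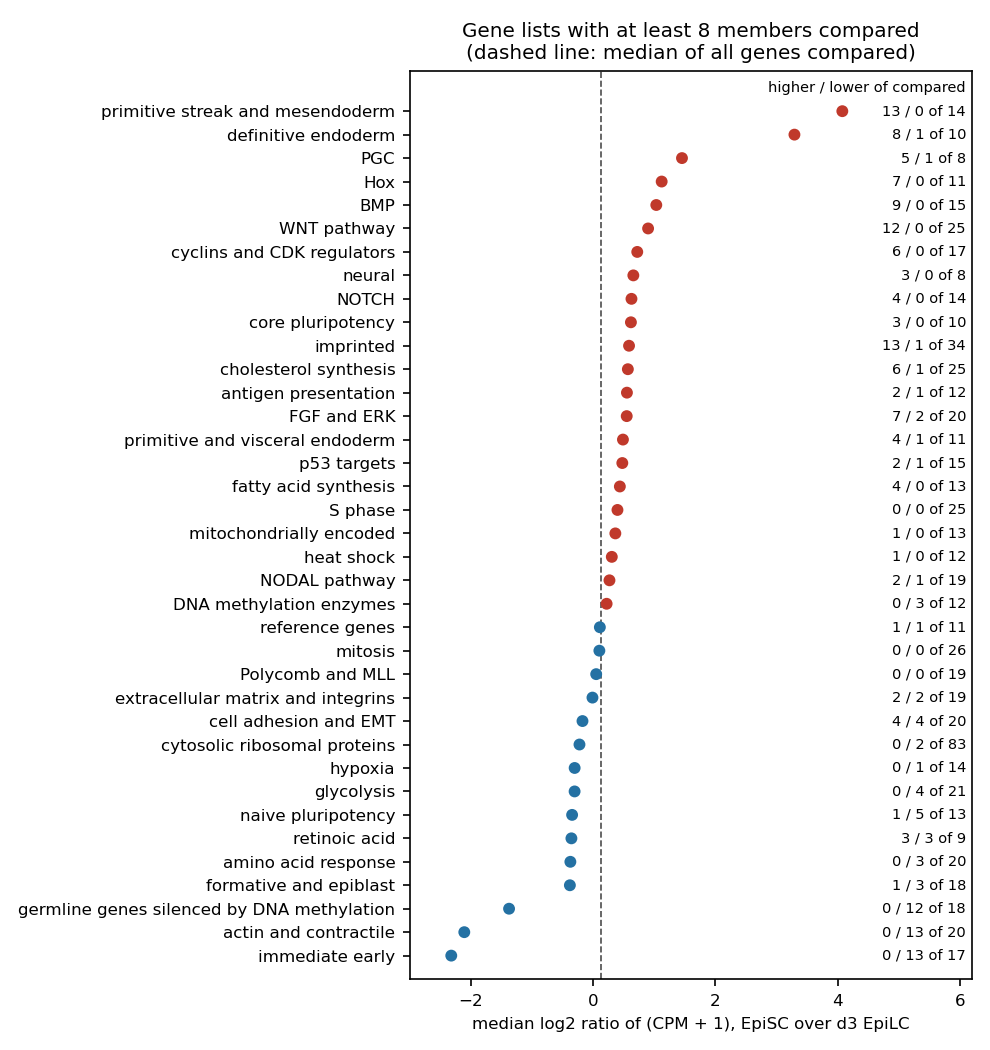
Points give the median log2 ratio of EpiSC over d3 EpiLC, on CPM plus 1, for each gene list with at least 8 members compared, and numbers on the right give members higher, lower and compared. The streak list has the highest median, 4.08, and the immediate early list the lowest, -2.32, while the dashed line marks the median of all genes, 0.13; medians of adhesion, matrix, mitosis, Polycomb and reference genes change sign with the scaling.

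The study's own sets of EpiLC and EpiSC genes were summed as well. They were chosen on d2 EpiLC, EpiSC and 2i ESC, so their direction in EpiSC is no independent evidence, and a place of d3 EpiLC between d2 EpiLC and EpiSC on the EpiLC genes is none either. The 389 EpiLC genes summed to 7456 CPM in 2i ESC, 9153 CPM in d1 EpiLC, 10316 CPM in d2 EpiLC, 8359 CPM in d3 EpiLC and 3392 CPM in EpiSC, with 2i ESC and d1 EpiLC also between d2 EpiLC and EpiSC. Of them 1 was higher and 171 lower in EpiSC than in d3 EpiLC, with a median log2 ratio of -0.84. The 546 EpiSC genes summed to 2294 CPM, 3799 CPM, 4599 CPM, 6965 CPM and 12709.5 CPM along the same path, with 245 higher and 4 lower and a median of 0.89. Single genes were nearer to EpiSC than to d2 EpiLC in d3 EpiLC for 120 of the EpiLC genes (30.8%) and for 177 of the EpiSC genes (32.4%). In d3 EpiLC 222 of the EpiLC genes stood between these neighbours, 126 above both and 41 below both, and of the EpiSC genes 357 stood between, 38 above both and 151 below both.

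Levels along the stages are given for leading genes, which were chosen by their difference between d3 EpiLC and EpiSC. T, Lhx1, Cer1 and Foxa2 were under 1 CPM from 2i ESC through d3 EpiLC. Lefty1 and Fgf8 peaked in d2 EpiLC among the EpiLC stages, at 479 CPM and 38 CPM, dipped in d3 EpiLC and were highest in EpiSC. Sox2 was at 218 CPM in 2i ESC, reached its lowest level, 32.3 CPM, in d3 EpiLC and stood at 126 CPM in EpiSC. Fos, Ccn1, Tagln and Thbs1 were at their highest in d3 EpiLC.

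**Figure D4:**
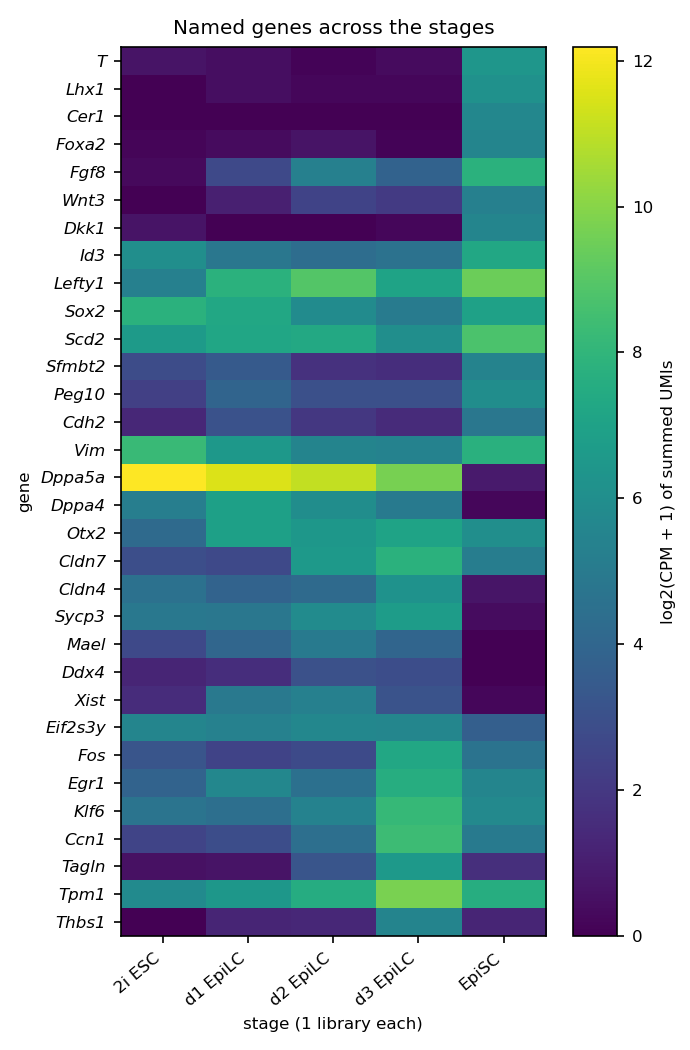
Colours give log2 of CPM plus 1 of 32 named genes in 2i ESC, d1, d2 and d3 EpiLC and EpiSC, 1 library each. T, Lhx1, Cer1 and Foxa2 at the top are bright in EpiSC alone, and Fos, Ccn1, Tagln and Thbs1 at the bottom are brightest in d3 EpiLC.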

How the data were processed

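The authors aligned 10x 3′ v2 libraries to mm10 with Cell Ranger 2.1.0, aggregated them after equalising mapped reads per cell, and deposited raw UMI counts per gene and cell. The broken header of the count table was rejoined, after which 1 EpiSC barcode had 15 bases. Counts were summed over the cells of each library and scaled to CPM with a pseudocount of 1. Genes with at least 10 UMIs over both libraries were compared, and at least 2-fold on log2 of CPM plus 1 counted as different. Positions came from GENCODE M21 and promoters from RefSeq. Doublets were called by Scrublet in scanpy 1.11.5, with Python 3.11.15, numpy 2.4.6, scipy 1.17.1 and pandas 2.3.3, and the steps were checked on simulated counts.

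Named genes are the 15 largest rises and falls at 100 or more UMIs, members of the gene lists, the 10 largest differences in detection each way, the 10 most variable genes of each library and the 5 largest CPM differences each way. The members and lists were chosen with earlier results of these data known. Alternatives covered pseudocount, minimum count, scaling, doublets, depth, thinning and fold. Some genes of the lists are not reported here.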

Additional observations from a re-analysis of the deposited data

How the results depend on the processing

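The 1071 higher and 858 lower genes became 1738 and 1394 with a pseudocount of 0.1 CPM, 391 and 316 with 5 CPM, 682 and 510 with a minimum of 100 UMIs, 2838 and 1853 at 1.5-fold and 184 and 184 at 4-fold, as fewer or more genes pass by construction. The median log2 ratio of 0.13 became 0.14 and 0.082 with pseudocounts of 0.1 and 5 CPM, 0.049 with scaling without mitochondrial and ribosomal protein genes, -0.0050 with TMM scaling, -0.023 when centred on the median of genes with at least 100 UMIs, 0.12 without cells far from the median UMIs of their library, and 0.11 and 0.15 with a minimum of 1 and 100 UMIs. The share of higher among different genes was 55.5%, and 49.3% without mitochondrial and ribosomal protein genes (1155 higher, 1188 lower), 43.8% with TMM and 40.8% when centred. Chromosome Y had a median of 0.11 without genes at least 2-fold different, which leaves 1 gene. Why the scalings differ was not tested.

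Among lists, the medians of metallothioneins, adhesion, matrix, mitosis, Polycomb and reference genes changed sign under a scaling, pseudocount or choice of cells. Genes that fell under 2-fold with a pseudocount of 5 CPM include Grhl2, Fgf4, Kit, Prdm1, Nanos3, Spry4, Nrarp, Copg2, Dnmt3l, Plk2, Cdkn2b, Gata4 and Col4a1, the last of which also fell under it when cells far from the median UMIs were left out or cells were thinned. No paired analysis was possible because each condition had 1 library. Counting error limits genes near 0.213 CPM, and spread between cultures is not measured.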

Other observations

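The keratin list was detected in fewer cells in EpiSC, at a summed level close to that of d3 EpiLC. The list had 1 higher and 0 lower of 5 compared and summed to 269 CPM in d3 EpiLC and 282 CPM in EpiSC. Krt7, which marks simple epithelia and trophoblast, was the higher member, with 2.06 CPM (1.38 to 2.96) in d3 EpiLC and 30.8 CPM (27.8 to 34) in EpiSC. Krt19 had 18 CPM in d3 EpiLC and 9.4 CPM in EpiSC, under 2-fold but past it with TMM scaling and with centring, and Krt5 and Krt20 had 0 UMIs in both. The variance over the mean of summed keratin UMIs was 3.13 in d3 EpiLC and 34.1 in EpiSC, and 41% of EpiSC had 0 keratins detected against 3.34% of d3 EpiLC.

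Matrix and integrin genes had 2 higher and 2 lower of 19 compared. Itgb5, an integrin subunit that binds vitronectin, had 9.23 CPM (7.71 to 11) in d3 EpiLC and 38.9 CPM (35.5 to 42.4) in EpiSC, and Col4a1, a collagen of basement membranes, 5.96 CPM in d3 EpiLC and 14.7 CPM in EpiSC. Itga3, a receptor for laminin, had 14.2 CPM in d3 EpiLC and 3.84 CPM in EpiSC, and Col18a1, a basement membrane collagen, 72.1 CPM in d3 EpiLC and 27.7 CPM in EpiSC. Fn1, the gene of the fibronectin also used as coating, had 28.5 CPM in d3 EpiLC and 25.1 CPM in EpiSC, under 2-fold.

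Genes of antigen presentation had 2 higher and 1 lower of 12 compared, beside 7.95% and 6.37% of all genes. Psmb8, an immunoproteasome subunit, had 1.21 CPM in d3 EpiLC and 8.15 CPM in EpiSC, Tap1, a peptide transporter, 1.42 CPM in d3 EpiLC and 4.7 CPM in EpiSC, and Irf1, an interferon factor, 17.1 CPM in d3 EpiLC and 7.84 CPM in EpiSC. Tap1 and Irf1 fell under 2-fold with a pseudocount of 5 CPM. Metallothioneins, which bind zinc, had 1 higher and 0 lower of 4 compared: Mt3 had 6.82 CPM in d3 EpiLC and 29.5 CPM in EpiSC, and the abundant Mt1 1167 CPM in d3 EpiLC and 1128 CPM in EpiSC. Of 11 reference genes, 1 was higher and 1 lower. Polr2a, the large subunit of RNA polymerase II, had 40.9 CPM in d3 EpiLC and 117 CPM in EpiSC, and Eif4a2, a translation helicase, 285 CPM in d3 EpiLC and 106 CPM in EpiSC.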
